A study of Mus musculus with 8 samples.

Results

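The microRNAs miR-221-3p and miR-222-3p were followed through early cardiotoxin injury of mouse muscle, with and without spinal cord injury, in a model of neurogenic heterotopic ossification (NHO, bone that forms in muscle after damage to the central nervous system). Every assay of the RT-qPCR panel whose mature miRNA name, without its species prefix, begins with miR-221 or miR-222 was taken, which gave 2 of 755 assays. Each miRNA has 1 assay, for its 3p arm and named for human. For comparison, 688 miRNAs were used with 1 assay each. The pair was chosen by its name and selected on earlier results of these data, namely its level (Cp and relative expression) in CDTX against PBS muscle. The difference between cardiotoxin and PBS is therefore a description of these muscles and has no test below.

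The samples were 8 RNA pools of gastrocnemius (calf) muscle from wild-type female C57Bl/6 mice aged 6 to 8 weeks. All mice had either a transection of the spinal cord (SCI) or SHAM surgery, and their muscle received either cardiotoxin (CDTX), a snake venom toxin that kills muscle fibers, or phosphate-buffered saline (PBS). The 4 groups combined an injection with a surgery (PBS + SHAM or PBS + SCI, and CDTX + SHAM or CDTX + SCI), each taken 2 days (D2) and 4 days (D4) after surgery, with 1 pool per group and day and 3 muscles per pool. By the methods, each mouse was injected with CDTX on the left and PBS on the right, so that matched CDTX and PBS pools may hold muscles of the same mice, and every PBS muscle may come from an animal that also carried a damaged muscle.

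A microRNA is cut as a short duplex from an RNA hairpin, and the arm that is kept guides silencing proteins to messenger RNAs through its seed, the bases 2 to 8 from the 5′ end. miR-221 and miR-222 are made from neighbouring hairpins and share a seed, so that they share predicted targets. They are known for repressing Cdkn1b, which encodes the cell cycle inhibitor p27, in dividing cells, and they decline as cultured myoblasts leave the cell cycle and differentiate. They are also expressed in vascular endothelium and smooth muscle and in blood cell precursors.

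The mature sequences show what the members share and where they differ. They are the RefSeq sequences of the mouse assembly GRCm38.p6, written 5′ to 3′ with the seed in capitals. miR-1928, a mouse miRNA, is the only other target listed for the panel with this seed.
miR-221-3p: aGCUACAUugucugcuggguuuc
miR-222-3p: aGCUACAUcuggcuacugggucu
miR-1928: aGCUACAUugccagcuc
miR-221-3p and miR-222-3p are identical over their first 8 bases and, aligned without gaps, at 11 of 23 positions. Both 3′ parts hold the run cugggu at shifted positions, so the count without gaps overstates how far they differ. Whether either assay also detects the other member was not tested. Of 750 panel targets, 3 carry the seed, and 3 of 1679 mature mouse miRNAs in RefSeq do. The target that the panel's maker lists for miR-221-3p is the whole 23 bases. The target listed for miR-222-3p has 21 bases and ends before the last 2 of the RefSeq form, as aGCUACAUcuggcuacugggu. The miR-1928 assay stood at the end of the recorded range, a quantification cycle of 36, in all 8 pools, and miR-1928 was thus not detected.

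Both members lie on the minus strand of chromosome X, miR-221-3p at chrX:19146307-19146329 and miR-222-3p at chrX:19146901-19146923 of GRCm38.p6, each in the 3′ arm of a microRNA hairpin gene. The hairpins are given with the mature 3p miRNA in capitals.
Mir221: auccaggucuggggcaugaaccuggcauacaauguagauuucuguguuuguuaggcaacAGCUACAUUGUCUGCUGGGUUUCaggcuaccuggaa
Mir222: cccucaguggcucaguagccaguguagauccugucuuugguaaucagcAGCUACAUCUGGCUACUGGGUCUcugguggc
The hairpin of Mir221 spans 95 bases and that of Mir222 spans 79, with 504 bases between them. The panel rows used here hold no assay of the 5p arm of either hairpin.

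Each assay gave 1 quantification cycle (Cp) per pool. Since the product doubles with each cycle, 1 cycle earlier means up to 2-fold more template. Across the pools, 141 to 165 miRNAs had a Cp of at most 32, the limit the study set, and 388 to 436 of the 755 assays stood at 36. The references were miR-125b-5p, miR-24-3p and miR-23b-3p, as in the methods. Relative expression was 2 raised to their mean Cp less the target's Cp, given as a percent of the reference level or as its log2. The tissue label was matched by its markers, since miR-133a-3p and miR-133b of striated muscle had a Cp of 19.74 and 19.95 in PBS + SHAM at D2.

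miR-221-3p was about an order of magnitude more abundant in every CDTX pool than in every PBS pool. Its Cp in the PBS pools was 31.41 in PBS + SHAM and 31.55 in PBS + SCI at D2, and 32.05 and 32.16 in the same order at D4. In the CDTX pools, with SHAM before SCI, it was 29.01 and 29.26 at D2, and 29.28 and 28.50 at D4. The earliest Cp belonged to CDTX + SCI at D4 and the latest to PBS + SCI at D4, and the injections did not overlap. Expressed as a percent of the references, the PBS pools held 0.944% (SHAM D2), 0.969% (SCI D2), 0.964% (SHAM D4) and 0.789% (SCI D4). The CDTX pools held 9.05%, 7.45%, 7.87% and 10.3% in the same order. The PBS pools had a mean log2 relative expression of -6.78 ± 0.142 (SD, n = 4 pools of 2 surgeries and 2 days) and the CDTX pools of -3.54 ± 0.208 (SD, n = 4). The PBS pools spanned a whole range of 0.297 log2 units. The lowest CDTX pool stood 2.94 log2 units above the highest PBS pool, in the contrast that chose the pair.

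miR-222-3p had a later Cp than miR-221-3p in all 8 pools, with the same split by injection. Its Cp in the PBS pools was 32.12 in PBS + SHAM and 32.26 in PBS + SCI at D2, and 33.53 and 33.03 at D4. In the CDTX pools it was 30.54 and 30.80 at D2, and 30.71 and 30.28 at D4, with SHAM named before SCI. No PBS pool reached a Cp of 32, whereas all 4 CDTX pools did. Its level in percent of the references was 0.577%, 0.592%, 0.346% and 0.431% in PBS, and 3.13%, 2.56%, 2.92% and 2.99% in CDTX, in the order SHAM D2, SCI D2, SHAM D4, SCI D4. The mean log2 relative expression was -7.72 ± 0.370 (SD, n = 4) in PBS and -5.11 ± 0.124 (SD, n = 4) in CDTX, with 2.11 log2 units between the nearest pools of the 2 injections. The widest spread within an injection was that of miR-222-3p in PBS, 0.777 log2 units, where its Cp was latest.

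**Figure D1:**
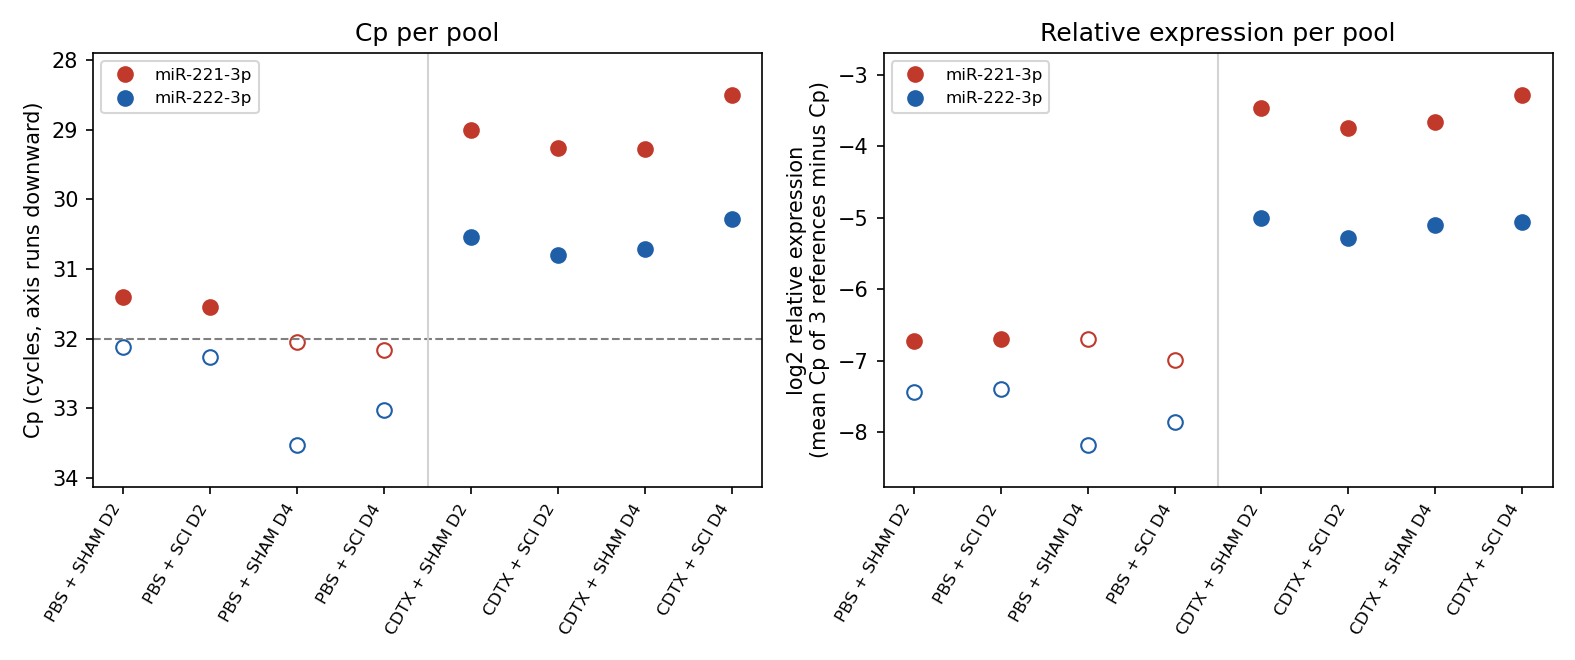
Cp (left, cycles, axis running downward) and log2 relative expression (right, mean Cp of 3 references minus the Cp) of miR-221-3p (red) and miR-222-3p (blue), 1 point per pool of 3 muscles, open where the Cp is later than 32 (dashed line). The 4 CDTX pools of each miRNA lie above its 4 PBS pools on both scales, with gaps of 2.94 and 2.11 log2 units on the right.

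From lowest to highest relative expression, miR-221-3p ran through PBS + SCI D4, PBS + SHAM D2, PBS + SHAM D4, PBS + SCI D2, CDTX + SCI D2, CDTX + SHAM D4, CDTX + SHAM D2 and CDTX + SCI D4. miR-222-3p ran through PBS + SHAM D4, PBS + SCI D4, PBS + SHAM D2, PBS + SCI D2, CDTX + SCI D2, CDTX + SHAM D4, CDTX + SCI D4 and CDTX + SHAM D2. The lowest CDTX pool was thus CDTX + SCI at D2 for both. With 1 pool per condition no spread between mice is known, and the nearest measure of technical error came from miRNAs with a second assay. Among those with a Cp between 28 and 34, where the members lie, log2 ratios of 2 assays of the same miRNA differed by 0.535 (root mean square of 145 differences, 18 miRNAs) and by 1.80 at most. Neighbours in either order within an injection were closer than 0.535. The step from PBS to CDTX chose the pair and is not judged against this error. The whole range within an injection stayed below 0.535 except for miR-222-3p in PBS, at 0.777. That error holds both assays of a pair and includes neither the pool nor the mouse.

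In rank among all miRNAs, the members stood later in PBS than in CDTX muscle. In PBS muscle, where 291 to 324 miRNAs had a Cp before 36, 138 to 149 of the other miRNAs had an earlier Cp than miR-221-3p and 160 to 194 had one earlier than miR-222-3p. In CDTX muscle these counts were 48 to 72 and 100 to 125. The Cp limit of 32 bears on this: miR-221-3p met it in 2 of 4 PBS pools, those of D2, and miR-222-3p in 0 of 4, so that with this limit in both pools only the D2 ratios of miR-221-3p would be left. The limit was therefore widened to 34, which 178 miRNAs met in all 8 pools, both members among them.

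The ratio of CDTX over PBS was 9.58-fold for miR-221-3p with SHAM at D2 (log2 3.26), 8.17-fold with SHAM at D4 (3.03), 7.69-fold with SCI at D2 (2.94) and 13.0-fold with SCI at D4 (3.70). The mean over these 4 pairs of pools was log2 3.23 ± 0.340 (SD, n = 4), or 9.41-fold. miR-222-3p was 5.43-fold higher with SHAM at D2 (2.44), 8.46-fold with SHAM at D4 (3.08), 4.33-fold with SCI at D2 (2.11) and 6.93-fold with SCI at D4 (2.79). Its mean was log2 2.61 ± 0.420 (SD, n = 4), or 6.09-fold. All 8 ratios were above 4-fold, and the smallest belonged to SCI at D2 in both members. The 8.46-fold ratio of miR-222-3p rests on the latest Cp of the pair, 33.53 in PBS + SHAM at D4.

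Rises of this direction were common in damaged muscle, so the members' counts are set beside the background. With the limit of 34 applied to the pools compared, at least 2-fold higher in CDTX were 25.6% of 199 miRNAs with SHAM at D2, 33.7% of 199 with SHAM at D4, 18.7% of 198 with SCI at D2 and 27.1% of 192 with SCI at D4, and both members in each. Of the 178 miRNAs measured throughout, 58 (32.6%) had all 4 CDTX pools above all 4 PBS pools, 25 (14%) were at least 2-fold higher in all 4 pairs, and 9 (5.06%) were at least 4-fold higher in all 4. Both members are among the 9, and nothing is read from this, since the contrast chose them. The other 7 are miR-142-3p, miR-142-5p and miR-223-3p, known from leukocytes, miR-18a-5p of the proliferation-linked miR-17~92 cluster, miR-21-5p, known to rise in many injured tissues, miR-214-5p of the Dnm3os transcript, and miR-2137. By mean ratio miR-221-3p ranked 5 of 178 and miR-222-3p ranked 9. Within single pairs miR-221-3p ranked between 2 and 10 and miR-222-3p between 9 and 14, among 192 to 199 miRNAs.

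**Figure D2:**
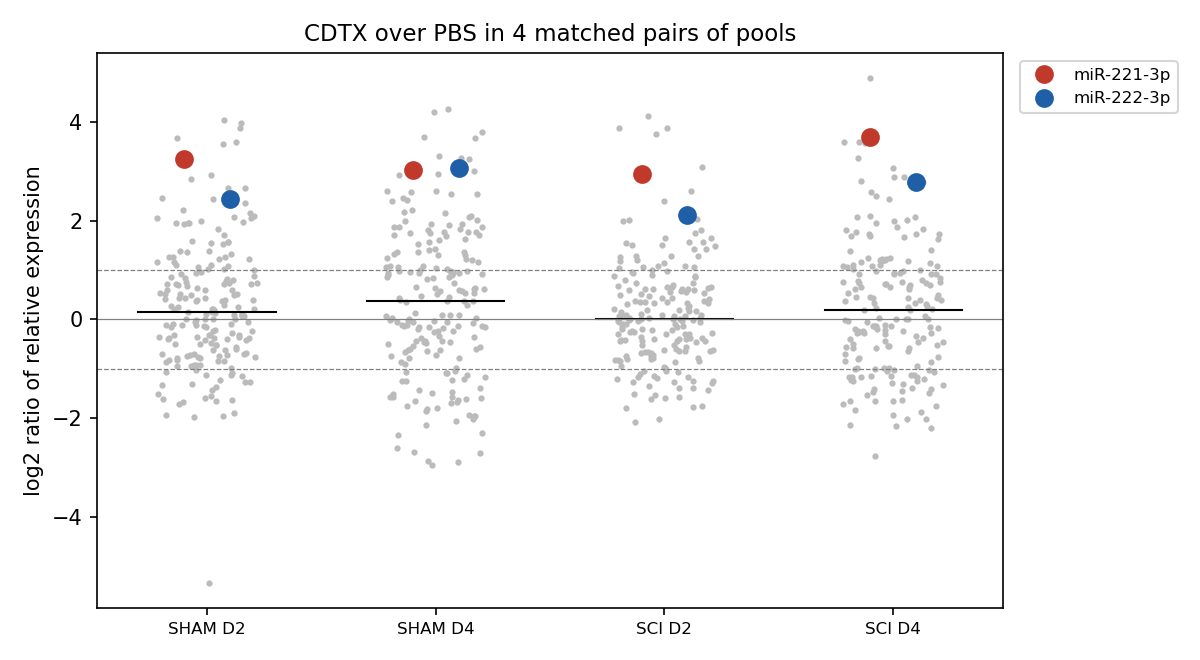
Log2 ratio of relative expression, CDTX over PBS, for each surgery and day. Grey points are single miRNAs within the limit of 34 (192 to 199 per pair), black bars their medians, dashed lines 2-fold, and the coloured points miR-221-3p (3.26, 3.03, 2.94 and 3.70 from left to right) and miR-222-3p (2.44, 3.08, 2.11 and 2.79).

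Without any reference the direction was the same. The raw Cp of miR-221-3p was earlier in CDTX by 2.40 (SHAM D2), 2.77 (SHAM D4), 2.29 (SCI D2) and 3.66 cycles (SCI D4). That of miR-222-3p was earlier by 1.58, 2.82, 1.46 and 2.75 cycles in the same order. The references themselves came later in CDTX, by 0.860, 0.260, 0.653 and 0.0433 cycles, so that they add most to the ratios of D2 and almost nothing to that of SCI at D4. With miR-24-3p alone as reference the SCI D2 ratio of miR-222-3p was log2 1.77, below 4-fold, and in the deposited normalized values it was 1.85.

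The members differed from each other most plainly in the distance between their Cp values, in which the reference cancels. miR-222-3p came later than miR-221-3p by 0.710 cycles in both D2 pools of PBS, and by 1.48 (SHAM) and 0.870 cycles (SCI) in those of D4. In CDTX it came later by 1.53 (SHAM D2), 1.54 (SCI D2), 1.43 (SHAM D4) and 1.78 cycles (SCI D4). The distance was thus wider in CDTX in 3 of 4 pairs, by 0.82, 0.83 and 0.91, while in SHAM at D4 it was 0.05 narrower. Second assays of 1 miRNA gave CDTX over PBS ratios that differed by 0.597 (root mean square of 43 differences, 12 miRNAs), and by 1.80 at most, so these 3 distances lie above that root mean square and below that maximum. A Cp distance between 2 assays also holds their efficiencies and is not a ratio of molecules.

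The question of whether SCI changes the members could be tested, since the contrast of SCI and SHAM did not choose them. miR-221-3p differed between SCI and SHAM by log2 0.04 in PBS at D2, -0.29 in PBS at D4, -0.28 in CDTX at D2 and 0.38 in CDTX at D4. miR-222-3p differed by 0.04, 0.32, -0.29 and 0.03 in the same order. In CDTX muscle at D2 both members were slightly lower with SCI, and in none of the 4 comparisons did either reach 2-fold. Percentages at least 2-fold higher or lower among all miRNAs were 1.9% (PBS D2), 2.5% (PBS D4), 5.85% (CDTX D2) and 13.3% (CDTX D4), so that a miRNA past 2-fold was rare in the first 3.

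Over the 4 pairs, the mean SCI over SHAM difference of miR-221-3p was -0.04 (SE 0.170, 95% interval -0.44 to 0.36, limma adjusted p = 0.961), higher with SCI in 2 of 4 pairs. For miR-222-3p it was 0.03 (SE 0.157, 95% interval -0.34 to 0.39, limma adjusted p = 0.963), higher in 3 of 4. A mean difference of 2-fold in either direction lay outside both intervals, which hold only the spread between these pairs of pools. A difference that turns between injections or days would not appear in a mean. Exact two-sided sign-flip permutation over the 4 pairs gave p = 1 for miR-221-3p and p = 0.625 for miR-222-3p, where the smallest p that 4 pairs allow is 2 of 16 sign patterns. With limma 0 of 178 miRNAs (0%) passed an adjusted p of 0.05, where 16 had an unadjusted p below it. The p-values and intervals measure the spread of the SCI difference between these 4 pairs of pools, not the spread between mice. Both tests take the 4 pairs as independent. They may not be, since the PBS and CDTX pools of a surgery and day may hold muscles of the same mice.

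At D4 after CDTX the median miRNA was lower with SCI, and both members stood above that median. There 29 of 226 miRNAs (12.8%) were at least 2-fold lower with SCI and 1 (0.442%) higher, with a median of log2 -0.32. Against this, miR-221-3p at 0.38 ranked 11 of 226 from the top, 0.70 above the median, and miR-222-3p at 0.03 ranked 47, 0.35 above it. The mean Cp of the references differed by -0.40 cycles between CDTX + SCI and CDTX + SHAM at D4, and the raw Cp of miR-221-3p was earlier by 0.780 and that of miR-222-3p by 0.430. This is 1 pool against 1, and second assays gave SCI ratios that differed by 0.518 (root mean square of 52 differences, 17 miRNAs).

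The CDTX response with SCI minus that without SCI was -0.32 log2 units at D2 and 0.67 at D4 for miR-221-3p, and -0.33 and -0.29 for miR-222-3p. At D2 both members thus had a smaller ratio with SCI, by like amounts, and at D4 they went opposite ways. The SD of this difference over all miRNAs was 0.538 at D2 (184 miRNAs) and 0.605 at D4 (187 miRNAs). The 0.67 of miR-221-3p was exceeded in size by 43 of 187 miRNAs (23.0%). The -0.32 of miR-221-3p at D2 was exceeded by 43.5% of miRNAs, and the -0.33 and -0.29 of miR-222-3p by 42.4% and 53.5%. Each of these differences rests on 4 single pools and was not tested.

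Between D2 and D4 the members changed little in damaged muscle. The ratio of D4 over D2 was log2 -0.20 for miR-221-3p and -0.10 for miR-222-3p in CDTX + SHAM, and 0.46 and 0.22 in CDTX + SCI. Neither reached 2-fold, in pools where 23.3% (CDTX + SHAM) and 11% (CDTX + SCI) of 210 miRNAs were at least 2-fold higher at D4, and 5.71% and 10% at least 2-fold lower. In PBS muscle miR-221-3p stood at 0.03 with SHAM and -0.30 with SCI. miR-222-3p stood at -0.74 with SHAM, the second lowest ratio of 201 miRNAs, and at -0.46 with SCI. In PBS + SHAM 0 of 201 miRNAs (0%) were at least 2-fold lower at D4, and in PBS + SCI 3 of 204 (1.47%) were. The ratios of miR-222-3p in PBS have Cp values of 32.12 to 33.53, later than the study's limit.

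**Figure D3:**
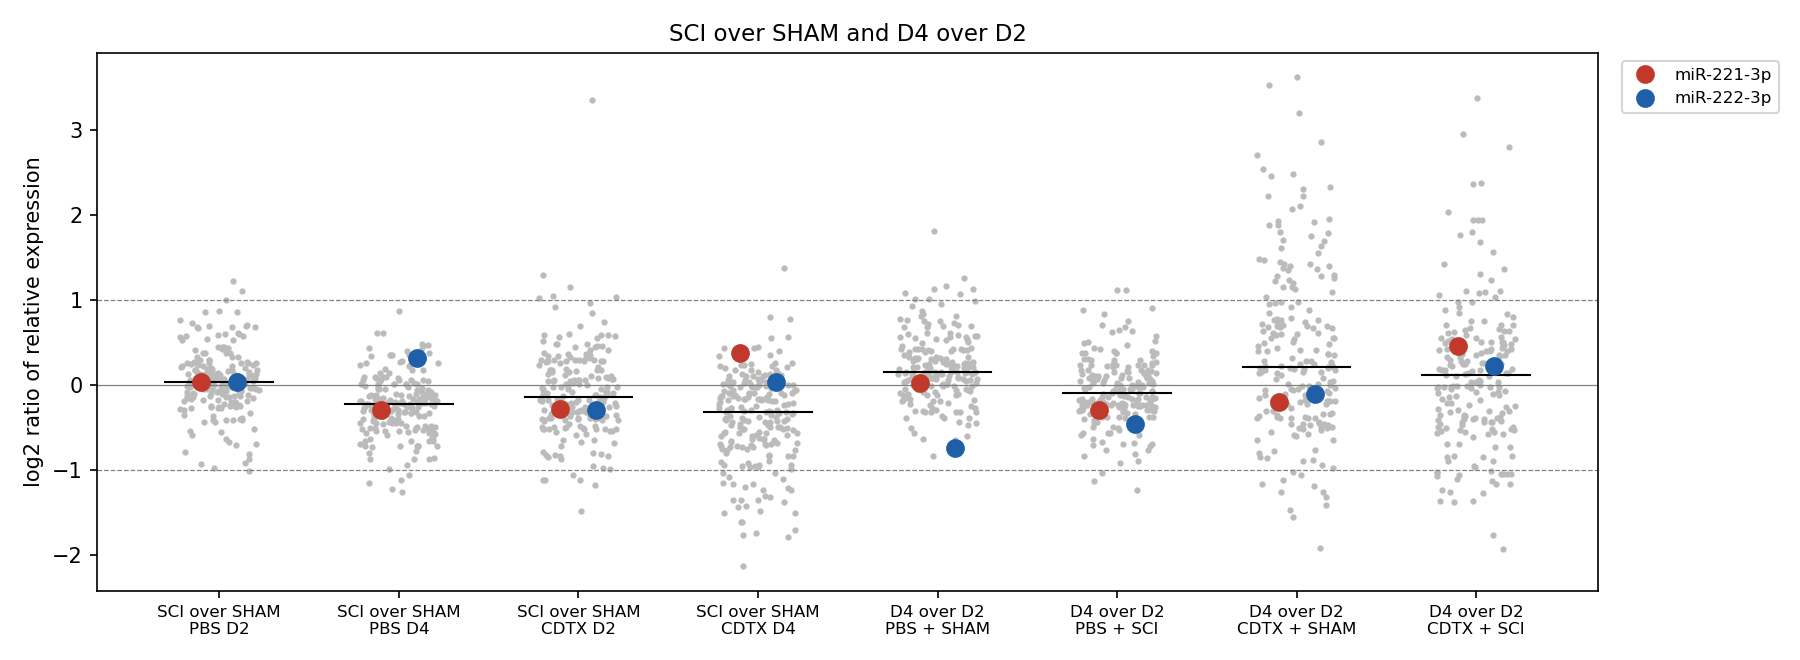
Log2 ratio of relative expression, SCI over SHAM (left 4 columns) and D4 over D2 (right 4 columns), with single miRNAs within the Cp limit of 34 in grey, medians as black bars and 2-fold as dashed lines. miR-221-3p (red) and miR-222-3p (blue) lie within 2-fold throughout, with miR-222-3p near the bottom in PBS + SHAM (-0.74) and miR-221-3p near the top for SCI in CDTX at D4 (0.38).

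The miRNAs whose profile over the 8 pools was most like that of the members came largely from the miR-17~92 cluster and from leukocytes. Likeness was Pearson's r of log2 relative expression over 8 pools, among the 116 other miRNAs that met the limit of 32 throughout, and is a description. For miR-221-3p the 5 highest were miR-19a-3p (0.987), miR-20a-5p (0.985), miR-142-5p (0.984), miR-17-5p (0.983) and miR-21-5p (0.981). For miR-222-3p the first 4 were the same, at 0.992, 0.983, 0.978 and 0.976, followed by miR-223-3p (0.971). The members had an r of 0.984 with each other. Such values were common: 19 of the 116 miRNAs had an r of at least 0.9 with miR-221-3p and 16 with miR-222-3p, while 24 and 25 had one of at most -0.9. All 8 points share the split between PBS and CDTX and the same references, and r mostly reads that split.

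The sizes of the CDTX over PBS ratios differed within this group. miR-142-5p, of the leukocyte miR-142 hairpin, had a mean log2 ratio of 3.65, above that of miR-221-3p at 3.23. miR-21-5p, at 2.70, was closest to miR-222-3p at 2.61. miR-17-5p, miR-19a-3p and miR-20a-5p, which come from 1 transcript, had means of 2.03, 1.81 and 1.79. The profiles most unlike the members were those of the muscle fiber miRNAs miR-133b, miR-486-5p and miR-133a-3p, with r between -0.965 and -0.981 and mean ratios of -1.70, -1.51 and -2.07.

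**Figure D4:**
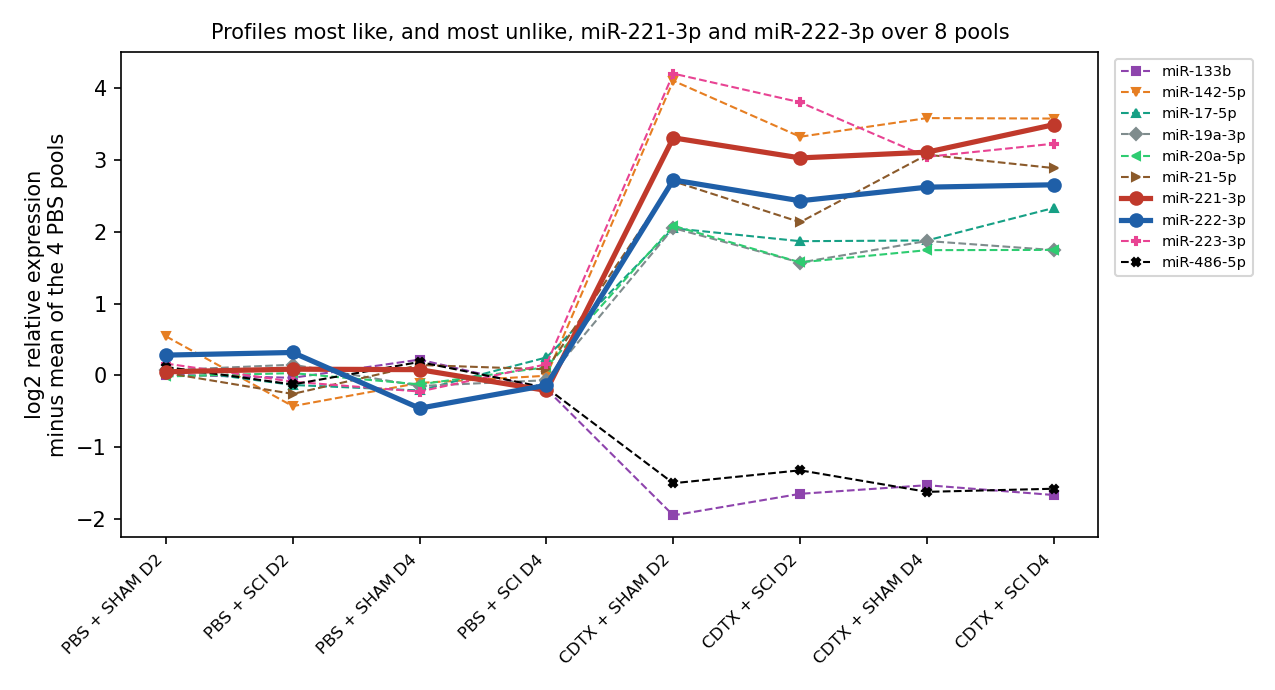
Log2 relative expression minus the mean of the 4 PBS pools, for miR-221-3p and miR-222-3p (thick lines), the miRNAs with the highest Pearson's r with either over 8 pools, and miR-133b and miR-486-5p with the lowest; lines join pools for reading only. The likest profiles step up from PBS to CDTX by 1.79 to 3.65 log2 units on average, and miR-133b and miR-486-5p step down by 1.70 and 1.51.

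Cell cycle miRNAs were followed as lists, chosen with earlier results known, and counted under the limit of 32 in the pools compared. Under it, CDTX over PBS had 22.7% (SHAM D2), 28% (SHAM D4), 17.2% (SCI D2) and 21.8% (SCI D4) of all miRNAs at least 2-fold higher and 16.7%, 24.8%, 18.7% and 24.1% at least 2-fold lower, with medians between -0.03 and 0.02. Of 12 miRNAs on the panel known to promote division (the miR-17~92 cluster, its paralogs and miR-21-5p), 8 of 10 kept were at least 2-fold higher with SHAM at D2 and 6 of 9 with SHAM at D4. With SCI the counts were 7 of 9 at D2 and 6 of 9 at D4, and 0 were lower in any pair. The medians were 1.75, 1.36, 1.20 and 1.25. Among the 9 kept in all pools miR-21-5p had the highest mean ratio, 2.70, and miR-25-3p the lowest, 0.28. miR-18a-5p, whose Cp was later than 32 in some pools, had 3.76.

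Of 11 miRNAs known to restrain division (the miR-15/16 and miR-34 families, miR-322 and miR-503), at least 2-fold higher were 3 of 7, 2 of 6, 1 of 7 and 2 of 6 in the order SHAM D2, SHAM D4, SCI D2, SCI D4, with 0 lower and medians of 0.63, 0.56, 0.44 and 0.61. Among the 6 kept in all pools miR-34a-5p, a target of p53, had the highest mean ratio, 1.76, and miR-195-5p the lowest, -0.51. miR-503-5p and miR-15b-5p, whose Cp was later than 32 in some pools, also rose. In the same order miR-503-5p had ratios of 2.21, 3.26, 1.28 and 3.60, and miR-15b-5p of 2.45, 2.17, 1.75 and 2.77. Of 7 miRNAs known to rise as myoblasts differentiate, at least 2-fold lower were 7 of 7 with SHAM at D2 and 6 of 7 in each other pair, with medians of -1.72, -1.81, -1.58 and -1.64. The miRNA that was not was miR-206, a miRNA of regenerating muscle, in both D4 pairs and miR-26a-5p, at -0.86, with SCI at D2. miR-206 had ratios of -1.14 (SHAM D2), 1.53 (SHAM D4), -1.58 (SCI D2) and 0.93 (SCI D4). miR-1-3p had the lowest mean, -3.08, with -5.34 for SHAM at D2 and -2.03 to -2.89 in the other pairs. miR-221-3p and miR-222-3p were higher in CDTX on both days, in the contrast that chose them. At D4 miR-206 was also above its PBS level, by less than 2-fold with SCI, while the other 6 of the list were at least 2-fold lower. Whether these miRNAs lie in the same cells was not tested.

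Among markers of cell types, the leukocyte sum was higher in CDTX and the striated muscle sum lower. The summed relative expression of 7 leukocyte miRNAs was 43.0% to 46.7% of the references in PBS and 188.6% to 323.5% in CDTX, with 4 of the 7 within the limit of 32 throughout and 0 at 36 throughout. The sum of 5 striated muscle miRNAs was 6640% to 10190% in PBS and 1598% to 2439% in CDTX. That of the 2 endothelial miRNAs, miR-126-3p and miR-126-5p, was 125.5% to 158.8% in PBS and 52.8% to 147.8% in CDTX, and the defining miR-126-3p had a mean CDTX over PBS ratio of log2 -0.77. Fibroblast and smooth muscle miRNAs (5) summed to 183.8% to 222.5% and 154.7% to 256.0%, and the 2 erythroid miRNAs to 1.12% to 3.13% and 1.14% to 2.56%. The leukocyte and striated muscle sums did not overlap between injections, while the endothelial, fibroblast and erythroid sums did. A lack of overlap was common: of 178 single miRNAs within the limit of 34, 58 (32.6%) had all CDTX pools above all PBS pools and 48 (27%) had all below. Single markers within a list went opposite ways. Of the fibroblast and smooth muscle list, miR-214-3p, miR-199a-5p and miR-199a-3p had mean log2 ratios of CDTX over PBS of 2.08, 1.71 and 1.08, whereas that of miR-145-5p was -1.01 and that of miR-143-3p was -0.85. Of the leukocyte list, miR-142-5p and miR-223-3p had 3.65 and 3.57, and the lymphocyte miRNA miR-150-5p had -0.83. The part of the cell types in the level of miR-221-3p and miR-222-3p was not tested, and in whole muscle more cells of a type and more of the miRNA per cell cannot be told apart.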

How the data were processed

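RNA of 8 muscle pools had been reverse transcribed and amplified with LNA primers and SYBR Green by the authors. Of 3 deposited tables, the first gives Cp, found as the second derivative maximum and without normalization. The second, as deposited by the authors, gives a ratio to references, which was tested to be 2 raised to the Cp difference from the mean of 4 references (miR-125b-5p, miR-24-3p, miR-23a-3p and miR-16-5p), to within 0.00668 cycles for ratios above 0.01. The third holds the authors' ratios of pools and was not used. Genome build and aligner do not apply to Cp values, and coordinates are those of the RefSeq table.

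Relative expression was recomputed from Cp with the 3 references of the methods. For 64 miRNAs with a second assay, the one named for mouse was used, otherwise the one with an earlier Cp on average. Groups came from the sample labels, and 3 assays not of a miRNA were left out. The members and lists were chosen with earlier results of these data known. All assays of the members were named, together with the 5 likest miRNAs, others with the same seed, and the highest and lowest of each list. CDTX over PBS and D4 over D2 are descriptions. SCI against SHAM was fitted with limma 3.58.1 (R 4.3.3), with a term for each combination of injection and day, over all miRNAs with Benjamini-Hochberg adjustment, after a test on simulated data. The Cp limit of 32 in every pool, set for this fit, leaves out both members, so their values come from the planned limit of 34. Alternatives were other references, Cp limits, fold thresholds, an additive model and each pair of pools left out. Raw Cp differences, and the limit of 34 combined with each of these, were added after seeing the data. Precision is limited by 1 pool per condition.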

Additional observations from a re-analysis of the deposited data

How the results depend on the processing

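Both members were higher in CDTX by at least the fold threshold in all 32 combinations of a pair of pools with another setting. These settings were another reference, no reference, or another fold threshold. Since the CDTX contrast chose the members, this outcome was nearly fixed in advance and nothing is read from it. The mean CDTX over PBS ratio was log2 3.08 to 3.33 for miR-221-3p and 2.45 to 2.77 for miR-222-3p with each pair left out, and 2.78 and 2.15 without a reference, the lowest of any setting. The mean SCI difference ran from -0.18 to 0.05 and from -0.07 to 0.13 with each pair left out, and from -0.11 to 0.09 and from -0.05 to 0.16 with other references or none. With limma 0 miRNAs passed for SCI at a Cp of at most 32 (116 tested, 15 at an unadjusted p below 0.05) and under every alternative run. The background depended on the settings. At least 2-fold higher or lower in CDTX were 52 miRNAs (SHAM D2), 66 (SHAM D4), 48 (SCI D2) and 61 (SCI D4) with a Cp of at most 32. In the same order they were 28, 32, 29 and 34 at 30, and 125, 152, 97 and 139 without a filter. A Cp of 34 gave 109 for SHAM D4 and 94 for SCI D4. At 1.5-fold they were 83 (SHAM D2), 78 (SCI D2) and 93 (SCI D4), and at 3-fold 24, 38, 17 and 29. Fewer or more miRNAs are counted by construction. No second assay of a member could be tried. No paired analysis by replicate number was possible because each condition has 1 pool, and SCI was instead compared with SHAM between pools of the same injection and day.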
